A study of Mus musculus with 8 samples.

Results

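Isolated intergenic BRG1 sites are places in the genome where BRG1 was found outside genes and away from other reproducible distal BRG1 peaks. They were chosen by the BRG1 peak lists of primary uterine stromal cells. A peak of the list called on pooled BRG1 fragments was kept if it lay on chromosomes 1 to 19 and overlapped a peak in each of the 3 BRG1 replicates. It also had to lie more than 2 kb from every GENCODE transcription start site (TSS), overlap no gene body, and have no other such TSS-distal peak within 12500 bp. Of 82669 pooled BRG1 peaks, 21134 were reproducible on the autosomes, 6392 of those were TSS-distal, 3160 of those lay outside gene bodies, and 2438 were isolated. These 2438 sites are 2.95% of the pooled list.

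PBRM1 and BRG1 were each profiled by chromatin immunocleavage sequencing (ChIC-Seq), in which an antibody brings a micrococcal nuclease to the chromatin and the released fragments are sequenced. All libraries came from WT mice aged 8 to 12 weeks, without a transgene or deletion. The stromal cells were isolated on day 4 of pseudopregnancy from 5 to 10 pooled uterine horns, plated for a few hours, and fixed at 50000 cells a library. There were 3 PBRM1 replicates, 3 BRG1 replicates and 2 IgG libraries, and the IgG pair was not used here. The study describes the replicates as biological. The labels do not say whether each came from a separate pool of animals, so p-values measure only the spread between these libraries. The libraries held 8868777 to 16505239 fragments. PBRM1 replicate 3 was the deepest library and had the fewest peaks, 21912. The lists hold no expression values, so the labelled cell type could not be checked against marker levels.

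BRG1 is the ATPase that drives nucleosome remodeling in SWI/SNF complexes. PBRM1 (BAF180) is a bromodomain protein that binds acetylated histone tails and belongs to the PBAF form of the complex, so a BRG1 site may or may not carry it. Distal sites of SWI/SNF often lie in enhancers, which are bound by transcription factors such as AP-1, or at insulators bound by CTCF. In the uterine stroma, progesterone acts through such elements to prepare the tissue for the embryo.

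The sequences at 7 summits are shown as examples of strings that some of these sites hold. They are 201 bases around the pooled BRG1 summit, read from the GRCm38 reference, and capitals mark the string that the search looked for. The AP-1 string was TGACTCA, the CTCF strings were CCAGNNGGC and CTAGNNGGC, and the SP and KLF string was GGGCGG, each on both strands. The first pair shows AP-1 strings, the next group CTCF strings, and the last pair CpG-rich sites near Klf4. Both sites of the first pair were named in the list of epithelial marker genes. They are the strongest named sites by BRG1 whose string lay within 50 bp of the summit, without sites that have a diverged copy elsewhere in the genome. For the last pair the site also had to be CpG-rich. These sequences were picked for their strings, and 1665 of the 2438 sites held neither the AP-1 nor the CTCF string within 150 bp of the summit.
AP-1 string, Grhl2 site, chr15:37135734-37135934, + strand: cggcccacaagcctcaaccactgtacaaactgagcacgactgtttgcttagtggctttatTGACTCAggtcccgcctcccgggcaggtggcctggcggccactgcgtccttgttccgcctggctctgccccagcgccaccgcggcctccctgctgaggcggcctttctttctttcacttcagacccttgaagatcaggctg
AP-1 string, Tfap2c site, chr2:172643996-172644196, + strand: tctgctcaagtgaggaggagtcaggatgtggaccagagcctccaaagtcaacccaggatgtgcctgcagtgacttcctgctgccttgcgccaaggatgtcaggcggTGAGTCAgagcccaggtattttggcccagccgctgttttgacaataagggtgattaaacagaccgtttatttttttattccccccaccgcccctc
CTCF string, Gm525 site, chr11:89186924-89187124, + strand: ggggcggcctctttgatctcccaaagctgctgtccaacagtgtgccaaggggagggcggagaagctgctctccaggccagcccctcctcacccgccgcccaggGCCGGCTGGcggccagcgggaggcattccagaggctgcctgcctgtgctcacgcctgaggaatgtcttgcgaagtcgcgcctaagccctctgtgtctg
CTCF string, Gnb1 site, chr4:155481473-155481673, + strand: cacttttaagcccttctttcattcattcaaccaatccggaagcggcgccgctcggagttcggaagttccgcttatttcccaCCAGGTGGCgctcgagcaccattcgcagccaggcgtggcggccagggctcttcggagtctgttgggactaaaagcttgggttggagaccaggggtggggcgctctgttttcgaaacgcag
CTCF string, Gja1 site, chr10:56921463-56921663, + strand: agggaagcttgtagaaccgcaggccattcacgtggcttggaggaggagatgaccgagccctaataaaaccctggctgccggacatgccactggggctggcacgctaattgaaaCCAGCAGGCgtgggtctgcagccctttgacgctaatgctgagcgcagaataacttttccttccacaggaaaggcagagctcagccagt
SP and KLF string, Klf4 downstream site, chr4:55514853-55515053, + strand: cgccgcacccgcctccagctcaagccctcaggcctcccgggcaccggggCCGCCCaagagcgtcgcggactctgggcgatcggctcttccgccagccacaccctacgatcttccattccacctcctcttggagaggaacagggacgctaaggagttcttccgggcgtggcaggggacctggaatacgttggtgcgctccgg
SP and KLF string, Klf4 upstream site, chr4:55651383-55651583, + strand: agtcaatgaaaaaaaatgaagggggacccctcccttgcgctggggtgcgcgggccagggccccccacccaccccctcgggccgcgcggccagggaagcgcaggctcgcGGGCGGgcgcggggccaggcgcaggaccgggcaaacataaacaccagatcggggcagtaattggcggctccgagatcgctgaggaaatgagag

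By median fold enrichment, BRG1 was stronger at these sites than at isolated intronic or clustered intergenic peaks, and weaker than at promoter peaks. By median fragment pileup, which is not divided by a local background, clustered intergenic peaks stood above these sites (42.0). Isolated intronic peaks stood just below them, and promoter peaks were again higher. The part of the local background in the order by fold enrichment was not tested. The median pooled fold enrichment, which MACS gives as the fragment pileup over the local background of the same library, was 6.98 (95% order-statistic interval 6.85 to 7.07), with quartiles of 5.78 and 8.69 and a range of 2.79 to 52.1. The replicate lists gave medians of 5.88, 5.74 and 5.86 at the same sites. The median site lay above 81.9% of all pooled BRG1 peaks. The rule kept only peaks found in each BRG1 replicate. The median peak of the other classes of reproducible peaks lay above 73.9% to 88.5% of the pooled peaks. A high rank in the pooled list thus goes with the choice and is not particular to these sites. As BRG1 peaks chose the sites, these values are a description. For isolated intronic peaks the median was 6.42, for clustered intergenic peaks 6.20, and for promoter peaks 8.59. The median length was 593 bp, against 565 bp, 596 bp and 805 bp in the same order. Across the 2438 sites the fold enrichments of BRG1 replicates were related with a Spearman's rho of 0.630 to 0.646, which describes the lists only since sites share libraries. The replicate summits of a site lay a median of 98 bp apart.

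The 5 strongest sites by BRG1 also had the 5 highest pooled PBRM1 fold enrichments among sites with PBRM1 in 3 of 3 replicates. Of the 8 strongest, 4 have a diverged copy elsewhere in the genome. The top site, chr3:5860362-5860813, lies 109.6 kb from Gm8797, the nearest protein-coding gene. Its BRG1 fold enrichment was 49.6, 47.2 and 47.5 in the replicates and 52.1 in the pool, and its PBRM1 fold enrichment was 40.8, 39.4 and 36.8. At chr6:3201320-3201568 the BRG1 replicates gave 28.5, 27.2 and 27.01. At chr11:109011652-109012103, 68.0 kb from Axin2, an inhibitor of WNT signaling, they gave 25.4, 27.6 and 27.4. These sites stand far above the upper quartile of the group, and their replicates lie close together. The BRG1 pileup was 1247 at the first, 1060 at the Axin2 site and 608 at chr15:75085505-75087015, against a median of 42.0 over all sites. The others of the 8 were near Hic2 (24.0 in the pool), Gm525 (22.01), Polr3k (20.7) and Sgca (19.6). A copy at 85% identity or more over at least 80% of the bases within 150 bp of the summit was found for the sites near Gm8797, Samd9l, Ly6c2 and Hic2, and for none of the 47 other named sites. At 98% identity, 1 of the 2438 sites had a copy. A copy of the site near Samd9l, at 96.7% identity, lies on chromosome 17 in CT010467.1, which GENCODE annotates as a ribosomal RNA gene. No blacklist of artifact-prone regions was applied here. The part that such copies play in the fold enrichments and pileups was not tested.

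PBRM1 was called at most of these sites in the pooled list and at 49.6% to 61.4% of them in single replicates. Of the 2438 sites, 2285 (93.7%, 95% Wilson interval 92.7% to 94.6%) overlapped a pooled PBRM1 peak, against 97.1% of all reproducible BRG1 peaks, so the share was below the background. Of those 21134 peaks, 14742 were promoter peaks, with a share of 98.8%. The share was 91.5% for isolated intronic, 94.4% for isolated exonic and 95.6% for clustered intergenic peaks. A PBRM1 peak was found at 49.6%, 61.4% and 54.96% of the sites in replicates 1, 2 and 3, a mean of 55.3% ± 5.91 (SD, n = 3). In all 3 replicates it was found at 777 sites (31.9%), against 60.6% of all reproducible BRG1 peaks. That share was 24.6% of isolated intronic and 40.4% of clustered intergenic peaks. Another 511 sites (21.0%) had no PBRM1 peak in any replicate. The like share was 25.5% of isolated intronic, 17.6% of clustered intergenic and 4.70% of promoter peaks, so it is not particular to these sites. Of the isolated intergenic sites, 148 (6.07%) had no peak in any of the 4 PBRM1 lists. These 148 sites had a median BRG1 fold enrichment of 6.02, and the 777 sites had 8.38. The intervals cover counting error only.

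Promoter peaks carried PBRM1 more often than isolated intergenic sites in each library. Their shares were 87.5%, 89.1% and 79.5%, so the differences (isolated intergenic minus promoter) were -37.9, -27.7 and -24.6 percentage points, a mean of -30.1 ± 6.96 (SD, n = 3). Isolated intronic sites had 42.5%, 55.8% and 49.3%, and the isolated intergenic sites were higher in 3 of 3 libraries, by a mean of 6.10 ± 0.812 percentage points. Clustered intergenic sites had 57.2%, 68.7% and 59.6%, and the difference was -6.50 ± 1.66 in mean, lower in 3 of 3 libraries. A two-sided exact sign-flip test over the 3 libraries gave p = 0.25 for each, and 0.25 after Benjamini-Hochberg adjustment over the 3 comparisons, which is the smallest p that 3 paired libraries allow. No difference could therefore reach 0.05. The libraries of a comparison are the same, and each difference was larger than its own spread between libraries.

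BRG1 strength moved with these shares. Over the isolated intergenic sites, the mean PBRM1 share was 37.6% ± 5.97, 44.3% ± 7.98, 55.2% ± 5.70 and 74.1% ± 4.86 (SD, n = 3 each) in 4 strength bins, from the weakest to the strongest, cut at the quartiles of pooled BRG1 fold enrichment over all TSS-distal reproducible peaks. Within these bins, the mean difference from isolated intronic sites was 2.44 percentage points, from clustered intergenic sites -11.0 and from promoters -25.5. In the weakest bin the isolated intronic sites had the higher mean, 39.8% ± 8.29 against 37.6% ± 5.97, so the mean difference turned there. The intronic share was higher in replicate 2 (48.3% against 43.7%) and replicate 3 (39.6% against 37.3%). In replicate 1 the shares were about equal (31.7% against 31.8%). The part of strength in these differences was not tested otherwise.

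**Figure D1:**
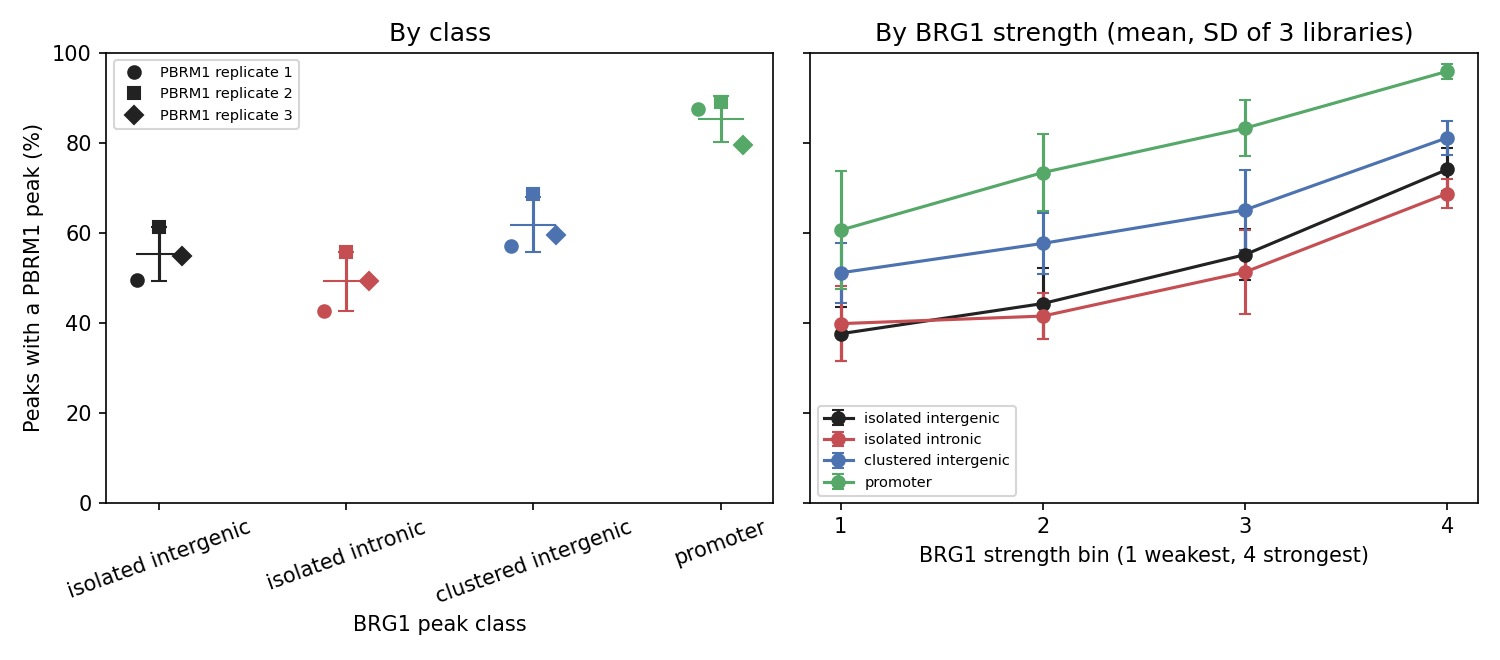
The left panel plots the percent of BRG1 peaks with a PBRM1 peak (y axis) in each of 4 BRG1 peak classes (x axis), with 1 point per PBRM1 replicate and a bar for the mean and SD. The right panel plots the mean and SD over the 3 libraries by bin of pooled BRG1 fold enrichment, and the isolated intergenic sites go from 37.6% to 74.1%.

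Where PBRM1 was called in the pool, its strength followed that of BRG1. Spearman's rho between the pooled fold enrichments was 0.617 over 2285 sites, as a description. The summits of the antibodies lay a median of 56.0 bp apart.

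**Figure D2:**
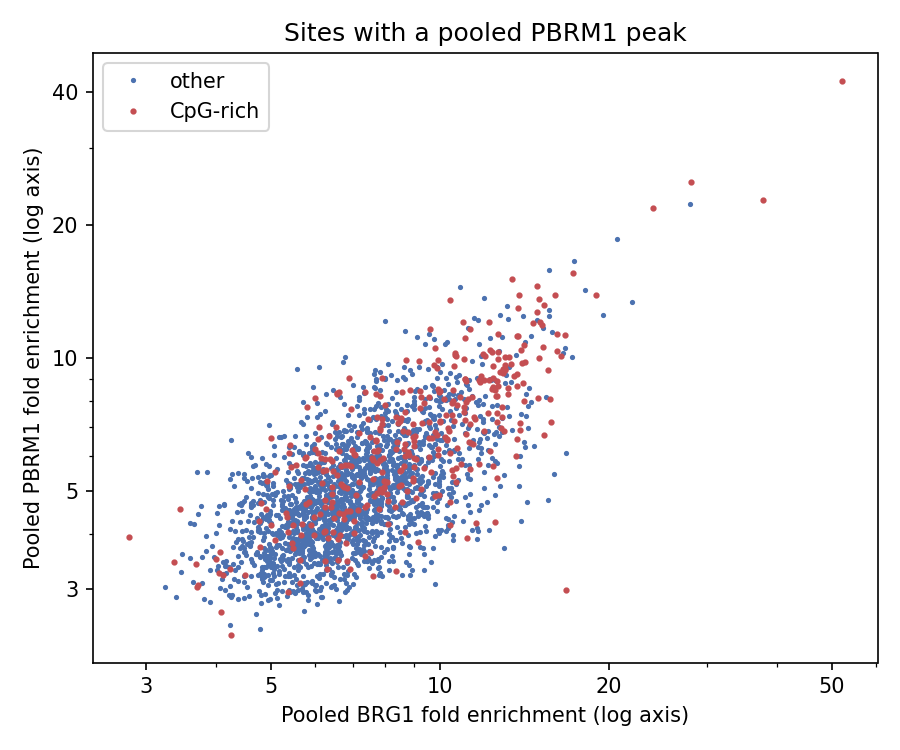
Each point is 1 isolated intergenic site with a pooled PBRM1 peak, with pooled BRG1 fold enrichment on the x axis and pooled PBRM1 fold enrichment on the y axis, both log axes, and CpG-rich sites in red. The points rise together, with a rho of 0.617 over 2285 sites.

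Among sites without a peak in any PBRM1 list, the strongest lay 10.7 kb from Slc25a1, a mitochondrial citrate carrier, with BRG1 fold enrichments of 10.6, 6.31 and 9.65. The next lay 9.68 kb from Gnb1, a G protein beta subunit, with 9.73, 8.98 and 10.49, and its CTCF string is shown above. The third lay 483.2 kb from Id4, an inhibitor of bHLH factors, with 8.16, 6.78 and 7.78. The others lay near Ncam1, a neural cell adhesion molecule, and Prokr1, a prokineticin receptor, at 9.39 and 9.23 in the pool. These 5 sites were picked as the strongest of the 148, so their place above the group's median follows from the choice. The 148 sites as a set had a median pooled fold enrichment of 6.02, below the 6.98 over all sites.

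The sites lay a median of 14246 bp from the nearest TSS (95% order-statistic interval 13660 to 15141), with quartiles of 7194 and 29136 bp and a maximum of 314949 bp. The nearest TSS belonged to a protein-coding gene for 978 sites (40.1%), to a lincRNA for 547 (22.4%) and to a processed pseudogene for 431 (17.7%). The nearest protein-coding TSS was a median of 31055 bp away. Isolated intronic sites had a median distance of 11654 bp to any TSS, and clustered intergenic sites 15020 bp. Of the isolated intergenic sites, 58.2% (Wilson interval 56.2% to 60.1%) lay upstream of the nearest protein-coding TSS, and 58.7% of the intergenic sequence more than 2 kb from a TSS does. Per Mb of that sequence, there were 2.93 sites at 2 to 5 kb, 3.53 at 5 to 10 kb, 3.03 at 10 to 20 kb, 2.09 at 20 to 50 kb, 1.02 at 50 to 100 kb, 0.436 at 100 to 200 kb and 0.235 beyond. The density was thus highest at 5 to 10 kb. BRG1 strength did not follow distance, with a rho of 0.018 over 2438 sites.

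**Figure D3:**
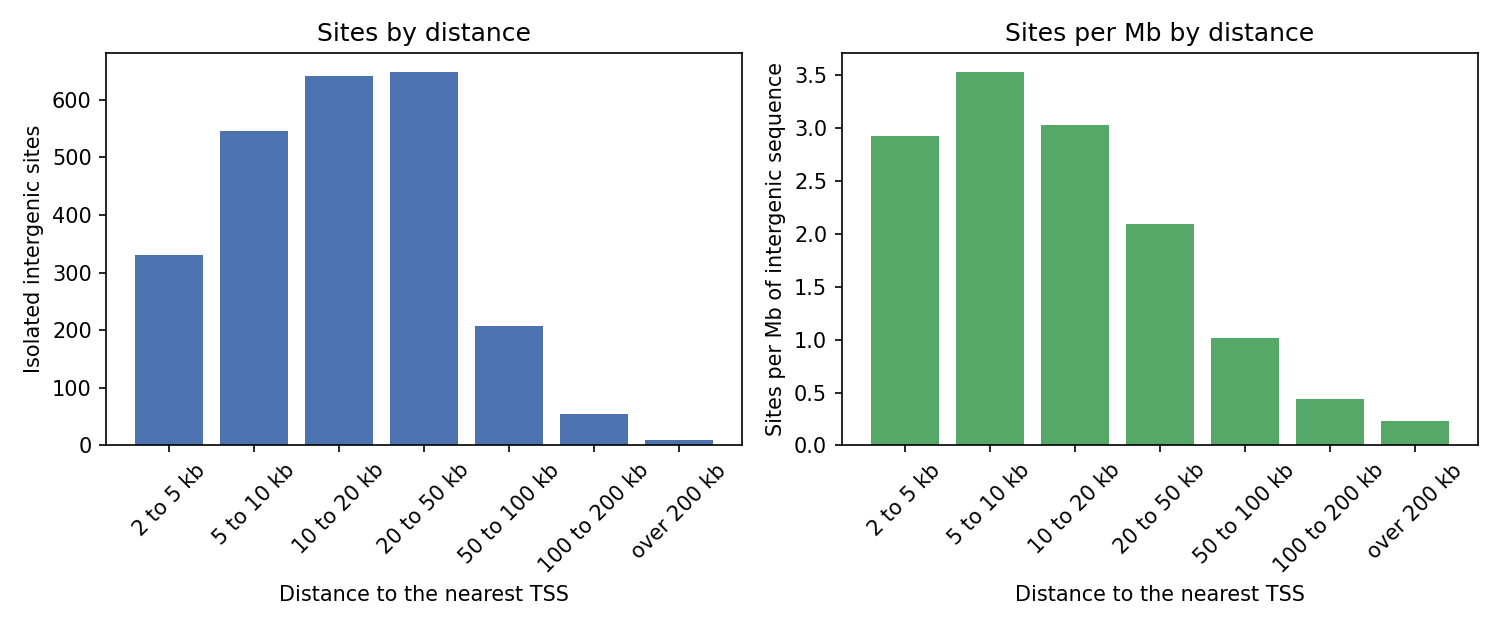
The left panel counts isolated intergenic sites (y axis) by distance to the nearest TSS (x axis, bins in kb), and the right panel divides the counts by the Mb of intergenic sequence in each bin. The count is largest at 20 to 50 kb (649 sites) and the density at 5 to 10 kb (3.53 per Mb).

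The 5 sites farthest from a TSS lay 315 to 262 kb away. The farthest, chr3:40138526-40139309, had BRG1 fold enrichments of 3.66, 4.53 and 5.34 and no PBRM1 peak. The next, near Hao1, gave 4.54, 6.24 and 3.98, again with no PBRM1 peak. The one with the highest BRG1 of the 5, 280.3 kb from Rbbp8, a DNA end resection factor, gave 9.39, 9.92 and 8.37, with PBRM1 at 12.49, 8.95 and 6.07. Of the 5, 3 had a pooled PBRM1 peak and 1 had one in all 3 replicates. At the limits of the rule, the sites just inside the 2 kb limit lay 2021 and 2027 bp from a TSS, with pooled BRG1 fold enrichments of 9.56 and 7.17, and those just outside lay 1982 and 1977 bp away, with 6.92 and 3.56. The sites just inside the 12500 bp limit were each other's neighbors at 12502 bp (4.35 and 4.14), and those just outside at 12448 bp (5.35 and 3.47). The nearest TSS-distal reproducible peak was a median of 64114 bp away, and it was over 100 kb away for 912 sites (37.4%). Isolation concerns reproducible peaks only, as 1819 sites (74.6%) had another pooled BRG1 peak of any kind within 12500 bp.

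The AP-1 string was found more often at the sites than at promoters or in flanking windows, and the CTCF string more often than in flanking windows but about as often as at promoters. Strings were searched within 150 bp of each summit, and the shares carry no test. The AP-1 string was present in 352 sites (14.4%, Wilson interval 13.1% to 15.9%), in 5.58% of windows 2000 bp downstream, in 4.21% of promoter peaks and in 7.27% of all reproducible BRG1 peaks. The CTCF string was in 482 sites (19.8%, 18.2% to 21.4%), in 7.38% of the downstream windows, in 19.5% of promoter peaks and in 19.6% of all reproducible BRG1 peaks. The SP and KLF string was in 24.8% of sites, 4.72% of downstream windows and 67.5% of promoters. The E-box CATCTG, which HAND and TWIST factors can bind, was in 26.3% of sites, 21.1% of downstream windows and 11.5% of promoters. The NFI string TTGGCA was in 19.7%, 13.0% and 10.2% in the same order. The steroid receptor string ACANNNTGT, a match to progesterone response elements, was in 6.93% of sites and 9.52% of downstream windows. Isolated intronic sites had the AP-1 string at 15.5% and clustered intergenic sites at 14.5%. The E-box was in 30.9% and 29.4% of these classes, above its share at the isolated intergenic sites. The NFI string was in 22.5% and 18.8%, and the SP and KLF string in 20.1% and 28.8%. The CTCF string was slightly less frequent in both classes than at the isolated intergenic sites. Base composition differed between windows, with a median GC content of 54.2% at the sites and 45.8% downstream, and its part in these shares was not tested. Of the CTCF strings nearest the summit, 52.9% lay within 50 bp of it, and of the AP-1 strings 40.1%. A string is a match of letters and not a binding site. The other 10 factor strings searched were in 1.15% (YY1) to 5.99% (RUNX) of sites. Among 4 motif strings taken from the study, CCAGGGCCT was in 1.93% of sites, 0.779% of downstream windows and 1.42% of all reproducible peaks. TCCCAG was in 39.6%, 34.1% and 36.2% in the same order. GACCACT was in 3.49%, 2.79% and 2.49%. TCGGTG was in 6.15%, 4.06% and 10.3%, so it was less frequent at the sites than over all reproducible peaks.

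**Figure D4:**
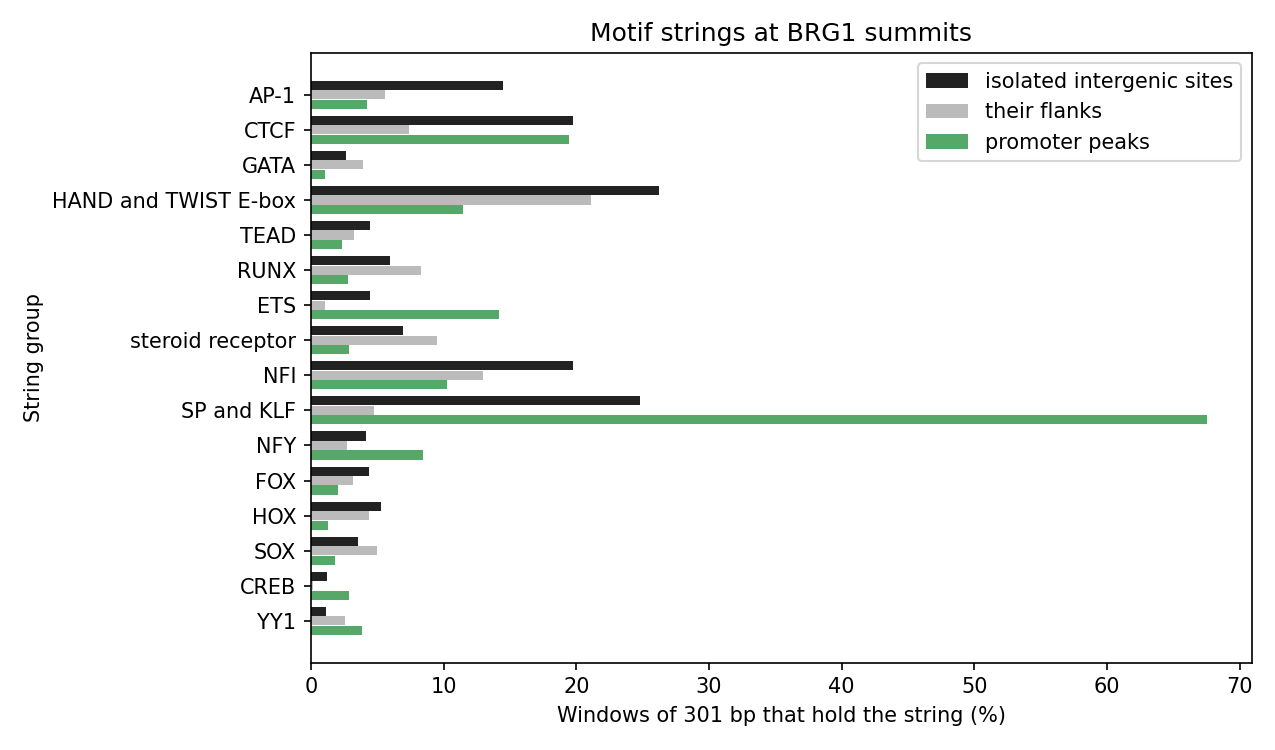
Bars give the percent of windows of 150 bp on each side of a point (x axis) that hold each string group (y axis), at the isolated intergenic sites, in windows 2000 bp downstream of their summits and at promoter peaks. The AP-1 bar is longest at the sites (14.4%), and the SP and KLF bar is longest at promoters (67.5%).

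Some of the sites had the base composition of promoters. A window was called CpG-rich at a GC content of at least 50% and an observed over expected CpG ratio of at least 0.6, a division chosen after values were seen. This held for 379 sites (15.5%, Wilson interval 14.2% to 17.0%), against 0.410% of the downstream windows, 6.92% of isolated intronic sites, 19.4% of clustered intergenic peaks, 33.0% of isolated exonic peaks and 77.7% of promoter peaks. PBRM1 was found at 77.3%, 81.8% and 72.8% of the CpG-rich sites and at 44.5%, 57.6% and 51.7% of the others, in replicates 1, 2 and 3. The shares did not overlap, and the difference was 26.04 ± 6.06 percentage points (SD, n = 3; exact sign-flip p = 0.25, the smallest possible). Other classes had such a gap too, so it is not particular to these sites. The mean shares at CpG-rich and other peaks were 67.8% and 47.8% for isolated intronic peaks. They were 73.6% and 59.0% for clustered intergenic peaks, and 89.4% and 71.3% for promoter peaks. Among the isolated intergenic sites, the median BRG1 fold enrichment was 8.70 at CpG-rich sites and 6.79 at the others. In the strongest BRG1 bin the mean PBRM1 share was 87.9% ± 2.47 at 214 CpG-rich sites and 68.8% ± 5.86 at 556 others, and in the weakest bin 49.1% ± 8.93 at 36 and 36.6% ± 6.61 at 417. With CpG-rich and other peaks compared separately, the difference of the isolated intergenic sites from promoter peaks was -16.1 percentage points and from clustered intergenic peaks -1.99, in mean over the 3 libraries, and from isolated intronic sites it was 6.46. The difference from clustered intergenic peaks turned between the 2 kinds. Among CpG-rich peaks the isolated sites were higher in 3 of 3 libraries (mean 77.3% against 73.6%), and among the others they were lower in 3 of 3 (51.3% against 59.0%). With CpG-rich sites left out of the isolated intergenic class alone, the difference from isolated intronic sites was 2.06 percentage points. That from clustered intergenic peaks was then -10.5 and that from promoter peaks -34.1. The CpG-rich sites lay a median of 9713 bp from a TSS, against 15376 bp. RefSeq has a TSS within 2 kb for 82 of the 379 (21.6%) and for 280 of all 2438 sites (11.5%), and 478 sites lie in a RefSeq gene body.

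The sites were nearest to 1925 protein-coding genes, 9.26% of the 20780 on the autosomes. Of these genes, 1480 (76.9%) also had a reproducible BRG1 peak at a promoter, against 62.4% of all genes. Most, 1573, had 1 site, and 31 had 4 or more. Med13l, a Mediator kinase module subunit, had the most sites, 9, which lay 46131 to 417165 bp from its TSS with pooled BRG1 fold enrichments of 4.51 to 14.0. Of its 9 sites, all 9 had a pooled PBRM1 peak and 4 had one in all 3 replicates. Rybp, a Polycomb component, and Mki67, the gene of the proliferation marker KI-67, had 7 each. Klf4, Tle3 and Cd83 had 6 each. These genes were named after their values were seen, and genes in large gaps have more intergenic sequence to hold sites.

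Genes of the 5 lists chosen for the stroma were nearest to such sites in larger shares than the background of 9.26%, with no test of the lists. Of 45 genes of progesterone signaling and implantation, 14 (31.1%) were nearest to a site. Of 69 mesenchymal transcription factors, 31 (44.9%) were, as were 13 of 29 AP-1 and immediate early factors (44.8%), 18 of 55 matrix genes (32.7%) and 21 of 65 secreted factors (32.3%). Among the markers of other cell types, 5 of 30 epithelial (16.7%) and 4 of 30 endothelial and blood cell genes (13.3%) were, counts too small to read as a difference from the background. Per Mb of their nearest intergenic sequence, the lists held 4.13, 3.04, 6.62, 3.48, 3.12, 3.02 and 2.41 sites in that order, against 2.10 over all genes. By this density the epithelial list (3.02) lay beside the mesenchymal factors (3.04) and the secreted factors (3.12). The larger share of those stromal lists was thus not matched by a larger density than in the epithelial list. The listed genes also had more of that sequence, with a median of 0.0182 to 0.147 Mb a gene by list against 0.0116 Mb over all genes. The lists overlap and the nearest gene need not be the one that a site acts on.

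In the progesterone list, the strongest site lay 25.9 kb downstream of the TSS of Egr1, an immediate early zinc finger factor. Its BRG1 fold enrichments were 9.31, 10.4 and 10.4, and its PBRM1 values 8.58, 7.16 and 5.79. A site 173.1 kb upstream of Bmp2, a decidualization growth factor, gave BRG1 values of 7.78, 8.64 and 8.15 and no PBRM1 replicate peak. The site 542.0 kb from Gja1, which encodes connexin 43, gave 6.11, 10.1 and 9.25, and PBRM1 6.35, 6.10 and 6.50. The site 12.9 kb upstream of Ihh, the hedgehog ligand that the epithelium sends to the stroma, gave 8.11, 5.44 and 8.19 with no PBRM1 replicate peak. So of these 4 sites, those near Egr1 and Gja1 had PBRM1 peaks in every replicate. Hand2 and Pgr were chosen after their values were seen. The site 7.63 kb downstream of the TSS of Hand2, a stromal bHLH factor, had BRG1 at 6.54, 5.74 and 7.03 and PBRM1 at 7.55, 6.30 and 3.18, and it was CpG-rich. The study places its uterine Hand2 enhancer upstream of the gene, so this is a different site. The site 147.8 kb upstream of Pgr, the progesterone receptor gene, had BRG1 at 3.45, 4.19 and 3.52, below the group's lower quartile, and PBRM1 at 4.14 in replicate 3 only.

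Among the mesenchymal transcription factors, Klf4, a zinc finger factor, had 3 of the strongest 6 sites, at 16.5 kb, 118.4 kb and 580.8 kb, with PBRM1 in 3 of 3 replicates at each. Fos, an AP-1 subunit, had a site 17.97 kb upstream with BRG1 at 8.79, 10.1 and 9.02 and PBRM1 at 10.0, 10.7 and 8.99. Myc had one 57.6 kb upstream with BRG1 at 7.06, 9.35 and 10.48, and PBRM1 in replicate 2 only, at 3.62. In the list of secreted factors, Inhba, an activin subunit, had the strongest site, 252.2 kb upstream, with BRG1 at 12.7, 11.3 and 12.2 and PBRM1 at 7.21, 5.12 and 5.06. Wnt2b, a WNT ligand, had a site 5.87 kb upstream with BRG1 at 13.0, 9.09 and 10.1. In the list of matrix genes, Dcn (decorin) had a site 165.5 kb upstream with BRG1 at 11.2, 6.25 and 6.33, where replicate 1 stood above the others. Of the markers of other cells, the epithelial list had a median pooled fold enrichment of 6.96 over 9 sites and the endothelial and blood cell list 5.16 over 6, against 6.98 over all sites. The strongest site of each of these lists, picked for its rank, is given next. Grhl2, an epithelial factor, had one 96.9 kb upstream with BRG1 at 8.09, 9.28 and 10.2 and PBRM1 at 8.47, 7.42 and 6.99, and Sox17, which endothelium expresses, one with 8.95, 12.2 and 8.17.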

How the data were processed

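ChIC-Seq libraries of PBRM1 and BRG1 were made from WT primary uterine stromal cells. The authors trimmed reads with cutadapt, aligned them with Bowtie2 to mouse GRCm38 (GRCm38.p5 per the labels), and removed duplicates and pairs of low mapping quality. They called peaks with MACS 2.2.7.1 at a q-value of 0.05 against the local background (10000 bp) without a control, per replicate and on pooled fragments. The deposited lists give fragment pileup as a signal, fold enrichment as a ratio, and the q-value as −log10, none scaled between libraries.

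Overlap meant at least 1 shared base. Scripts used Python 3.11.15 (numpy 2.4.6, pandas 2.3.3, scipy 1.17.1, pysam 0.24.0, matplotlib 3.10.9), and bedtools 2.31.1 gave the same overlap count. Peaks were classed with GENCODE M21. Strings were searched within 150 bp of summits, and copies were sought with BLAST 2.17.0. PBRM1 shares were compared over the 3 PBRM1 libraries with an exact sign-flip test, paired because each library gives both shares. Named sites were the 8 strongest, the 5 farthest from a TSS, the 5 with the highest PBRM1 in 3 of 3 replicates, the 5 strongest without PBRM1, those at the limits and up to 6 per gene list. A site that this rule names is not reported here. The members and lists were chosen with earlier results of these data known. The steps were tested on simulated data.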

Additional observations from a re-analysis of the deposited data

How the results depend on the processing

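Of 128 recalculations, 104 stayed near the main result (a site count within 1.5 times, a difference in its direction, any other value inside its interval), 24 moved and 0 reversed. The unpaired runs and those without a PBRM1 replicate could not reverse, as each difference had the same sign in all 3 libraries. Bins of strength and CpG kinds were averaged first, so the turns within them described above are not counted as reversals. The flank windows are a comparison, and they are among the 24. Among those that stayed, the number of sites still ran from 1902 without RefSeq genes to 3255 with protein-coding genes alone, against 2438. The number of sites moved to 1251 when each BRG1 replicate had to cover at least 50% of the pooled peak, and that setting gave 96.2% with pooled PBRM1, a median distance of 12987 bp, a median fold enrichment of 7.67 and a CTCF share of 22.8%. The median distance was 16834 bp with a 5 kb TSS limit, 32558 bp with protein-coding genes alone (where the median fold enrichment was 7.08) and 15376 bp without CpG-rich sites (6.79). The pooled PBRM1 share was 81.3% for PBRM1 peaks at a −log10 q of at least 5 and 89.6% when the BRG1 summit had to lie inside the PBRM1 peak. Within 50 bp of the summit the AP-1 share was 5.41% and the CTCF share 10.1%, and in flank windows of that width they were 2.01% and 2.67%, a comparison added after seeing the data. In flank windows of 150 bp on each side they were 5.58% and 7.38%. Leaving out 1 BRG1 replicate gave 88.1% to 88.3% with pooled PBRM1 and a median fold enrichment of 6.52 to 6.62. The count of sites was then 2899 to 3140.

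Without the replicate block (unpaired exact permutation test), p was 0.4 for isolated intronic, 0.3 for clustered intergenic and 0.1 for promoter peaks, with the same differences of 6.10, -6.50 and -30.1. Without a PBRM1 replicate these were 5.63 to 6.34, -7.45 to -5.94 and -32.8 to -26.2. The difference from isolated intronic sites was 2.44 within bins of BRG1 strength and 2.06 with CpG-rich sites left out of the isolated intergenic class alone. That from clustered intergenic sites was -11.0 and -10.5, and -1.99 within CpG-rich and other peaks, where promoters gave -16.1. The RefSeq and CpG alternatives were chosen after seeing the data. PBRM1 replicates 1, 2 and 3 held 8868777, 12770092 and 16505239 fragments, and their shares at the sites were 49.6%, 61.4% and 54.96%. The shares were thus not in the order of depth, and the part of depth was not tested. An absent peak means only that none was called in that library.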

Other observations

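The sites were spread unevenly over the chromosomes. Chromosome 11 held 192 sites, 3.72 per Mb of intergenic sequence more than 2 kb from a TSS, and chromosome 3 held 124, 1.40 per Mb, with the other chromosomes between them. Soft-masked repeats made up 7.70% of the windows at the summits on average and 29.6% of the windows 2000 bp downstream. A reproducible promoter peak lay within 12500 bp of 466 sites (19.1%).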
